A study of Mus musculus with 462 samples.

Results

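Rgma, Slco3a1 and St8sia2 are 3 protein-coding genes that lie within 1 Mb of the long noncoding RNA locus linc2025 on mouse chromosome 7. They were followed through all 439 count libraries, each of which lists them, and they are 3 of 1577 transcript names in the series. The trio was chosen by its measured totals and allele ratios in clones modified at linc2025, so those clones are described here with fold changes and standard errors but without p-values. In the files' mm9 coordinates, given for each gene body as the files list it, Rgma spans 80520406 to 80564785, linc2025 80688921 to 80703433, St8sia2 81084006 to 81158568 and Slco3a1 81420304 to 81699666. The gaps to linc2025 are 124 kb for Rgma, 381 kb for St8sia2 and 717 kb for Slco3a1.

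Rgma encodes repulsive guidance molecule A, a membrane-anchored protein that binds the receptor neogenin and acts as a co-receptor for bone morphogenetic proteins. St8sia2 encodes a polysialyltransferase, which builds polysialic acid chains on the neural cell adhesion molecule in the developing nervous system. Slco3a1 encodes a transporter of the organic anion family. A promoter deletion at a long noncoding RNA locus is used to ask whether that stretch of DNA or its transcript acts on neighbouring genes, and in a hybrid cell the unmodified chromosome serves as an internal reference.

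Polyadenylated RNA was captured with probes for a chosen panel and counted by allele in clonal lines from F1 129/Castaneus mouse embryonic stem cells, grown in serum-free 2i/LIF medium, which holds such cells in naive pluripotency. There were 220 unmodified Control clones and 219 modified clones. The labels carry date labels such as 150126, and 3 panels of captured transcripts were used on different dates, of which 691, 898 and 896 transcripts were kept for the first, the second and the third panel. linc2025-PromoterDeletion comprised 8 clones of 150126, set against 77 Control clones of that date. linc2025-pAS, named in the labels for an inserted polyadenylation signal, comprised 4 clones of a date label with no Control clone of the first panel. The reference was therefore 18 clones of that label with pAS insertions on other chromosomes (7 at Gpr19, 6 at Slc30a9 and 5 at linc1329). A further 29 groups modified elsewhere had Control clones of their own date. They were 9 promoter deletions of 150126 (Crlf3, Gpr19, Rcc1, Slc30a9, Snhg17, Snhg3, linc1423, linc1509 and linc1536) and 20 groups of other dates. Those 20 held promoter deletions at Dicer1, Meg3, Sfmbt2, linc1319, linc1386, linc1399, linc1405 and linc1547, and pAS insertions at Gpr19, linc1319 and linc1536. The rest were a promoter insertion and exon, intron and 5ss edits at linc1319. Of these loci, linc1386 also lies on chromosome 7, from 82912598. Each clone is a separate line, and whether clones of a group came from separate transfections is not stated. Which allele a clone lost, and which count column is which strain, are not stated either. The growth protocol names male cells and the labels a female line.

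The libraries held between 62104 and 2981776 counts assigned to an allele (median 830611). CPM below is the sum of both allele columns scaled to 1e+06 allele-assigned counts per library, and it cannot be compared between panels. Of counts from 1 to 20, 84.4% were even, so a count is not a single molecule and intervals from counts cover counting error only. Naive pluripotency markers were captured only in the second and the third panel, where Nanog and Dppa3 together averaged 28451 CPM in Control clones of 141107 (range 21303 to 39063, n = 63). In the same clones the neural progenitor marker Nes averaged 1767 CPM (894 to 2608). The mesendoderm markers Eomes, Gsc and Mesp1 summed to 965 CPM (396 to 1493), with Mesp1 at 0 in all of them. In the first panel, used for both linc2025 groups, the only cell type markers of the lists used were the trophectoderm keratins Krt8 and Krt18. Their sum averaged 509 CPM in Control clones of 150126 (127 to 1917) and 578 CPM in the 8 linc2025 promoter deletion clones (458 to 666).

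The St8sia2 promoter is shown because it was the only promoter of the 3 members that was available. RefSeq's table (GRCm38.p6) holds 1 of the 3 members, and these are the 250 bases before the St8sia2 start, chr7:74013683-74013932 on the minus strand, with every match to the GC box GGGCGG, read on both strands, in capitals:
St8sia2: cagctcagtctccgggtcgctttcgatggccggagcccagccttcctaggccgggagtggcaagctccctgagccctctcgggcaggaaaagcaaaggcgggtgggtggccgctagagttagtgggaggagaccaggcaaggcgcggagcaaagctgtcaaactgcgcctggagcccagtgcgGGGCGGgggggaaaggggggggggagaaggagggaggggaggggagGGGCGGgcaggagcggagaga
The stretch holds 2 GC boxes and is 68.8% G or C, against a median of 52.4% over the same window of 32851 promoters. A GC box was present in 32.7% of those promoters. Neither TATAAA, found in 12.4% of them, nor CCAAT, found in 33.8%, occurs in it on either strand.

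In unmodified cells Rgma was an abundant captured transcript and the other members were scarce. In Control clones of 150126 the level of Rgma ran from 3191 CPM through a median of 5514 to 9233 CPM, on a median of 4886 counts. St8sia2 ran from 9.83 through 66.9 to 283 CPM, on a median of 48 counts. Slco3a1 ran from 0 through 12.4 to 44.1 CPM, on a median of 12 counts, and 3 of the 77 clones had none. The coefficient of variation was 78.8% for St8sia2, 56.2% for Slco3a1, which had fewer counts, and 18.4% for Rgma.

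The members did not keep their levels across dates. Within the first panel, Control clones of 150416 had a median of 1626 CPM of Rgma (range 1211 to 1958, n = 9), 3.39-fold below the 150126 median, and the ranges did not overlap. Such a separation was seen for 5.77% of 468 transcripts. Slco3a1 went the other way, with a median of 55.8 CPM in 150416, 4.48-fold above that of 150126, and St8sia2 was 1.69-fold higher, both with overlapping ranges. Within the second panel, the St8sia2 median was 314 CPM in 141107 (n = 63), 295 CPM in 150216 (n = 12) and 56.8 CPM in 150126-S1 (n = 15), and these ranges overlapped. The Rgma median in those dates was 1974, 2581 and 3411 CPM, in the opposite order, and that of Slco3a1 was 23.4, 9.52 and 5.72 CPM. Within the third panel, 150801 and 151101 had Rgma medians of 832 CPM (n = 29) and 891 CPM (n = 15), St8sia2 medians of 34 and 22.4 CPM and Slco3a1 medians of 16.4 and 13 CPM, all with overlapping ranges.

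**Figure D1:**
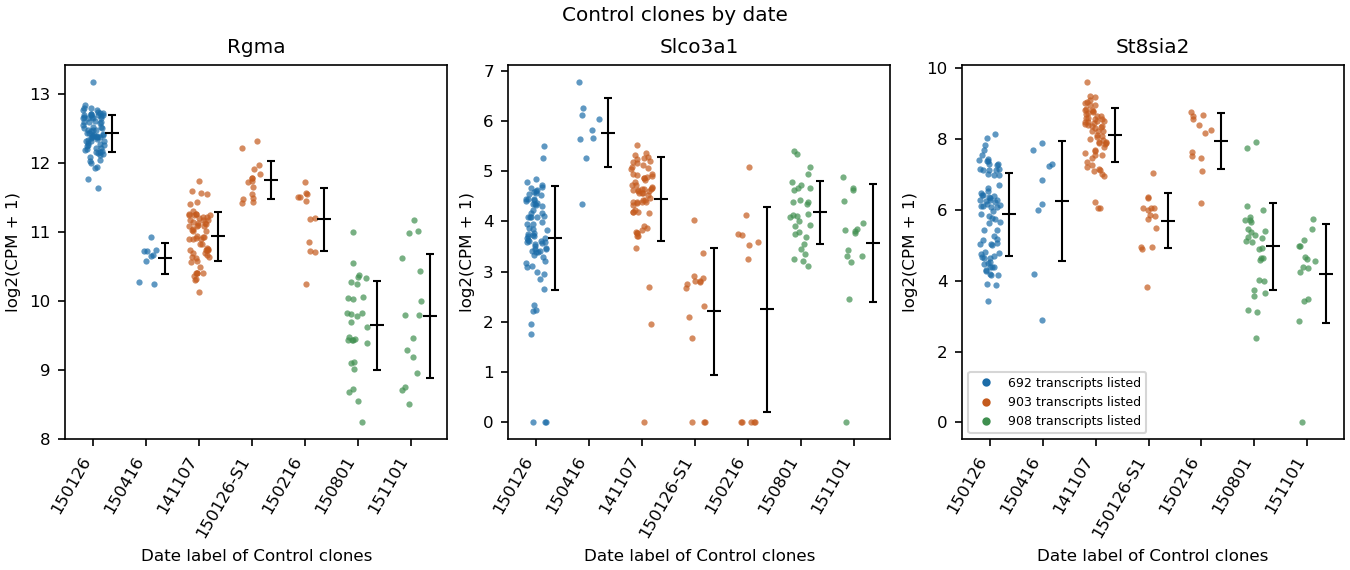
Level of each member in Control clones by date label, as log2(CPM + 1), with 1 point per clone, the mean and SD as a black bar, and colours for the 3 panels (blue for the first, orange for the second, green for the third), between which levels are not comparable. Within the blue panel, every Rgma value of 150126 (3191 CPM or more) lies above every value of 150416 (1958 CPM or less).

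Counts lay unevenly between the allele columns for St8sia2 and Slco3a1, in opposite directions, and almost evenly for Rgma. Over all Control clones of 150126, the first allele column held 49.4% of Rgma counts, 69.9% of Slco3a1 counts and 24.5% of St8sia2 counts. In 141107 the same shares were 51.8%, 71.6% and 32.7%. The log2 ratio of the first column over the second was computed where a clone had at least 20 counts. For St8sia2 it was below 0 in each of 70 such clones of 150126, with a mean of -2.16 ± 1.36 (SD), and in each of 63 clones of 141107, with a mean of -1.21 ± 0.46. For Slco3a1 it was above 0 in 55 of 56 clones of 141107, with a mean of 1.38 ± 0.80. For Rgma it lay on both sides of 0, with a mean of -0.016 ± 0.21 in 150126 (n = 77) and 0.09 ± 0.13 in 141107 (n = 63).

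Rgma and St8sia2 differed between the labelled plates of unmodified clones, and a difference for Slco3a1 did not pass the test. The labels place the 77 Control clones of 150126 on 25 plates. With plate as a factor in edgeR's quasi-likelihood test, the adjusted p was 3.53e-10 for Rgma, 2.67e-17 for St8sia2 and 0.216 for Slco3a1. Plate was called for 91.9% of 472 transcripts, so a call by itself does not set a member apart. Differences between plates took up 83.2% of the variance of the St8sia2 total, 64.8% of that of Rgma and 13.4% of that of Slco3a1, against a median of 51.7% over all transcripts tested. In 141107, with 63 clones on 20 plates, the adjusted p was 0.000145 for Rgma, 0.00177 for St8sia2 and 0.160 for Slco3a1, where 80.2% of 572 transcripts were called.

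Plates took up more of the variance of the Rgma allele ratio than of its total in 150126 and less in 141107. In 150126 they accounted for 85.2% of its variance, against a median of 14.2% over 225 transcripts with a median of at least 500 counts, and it ranked 2 among them, after Gprc5a. In 141107 the share was 23.3%, rank 84 of 309, with a median of 10.5%. Plate 10 of 150126 had Rgma ratios of -0.42 to -0.36 in its 3 clones, and plate 4 had 0.19 to 0.30 in its 3 clones. These plates have the lowest and the highest mean ratio, and other plates were wider, with -0.10 to 0.25 over the 3 clones of plate 23. Across Control clones of 150126 its Spearman rho was 0.33 with the ratio of Chd2, a chromatin remodeler gene 2.29 kb from linc2025, 0.32 with that of St8sia2 (n = 70), 0.08 with that of linc2025 and 0.02 with that of Fam174b (n = 76). Over 18 other chromosome 7 transcripts these rho ran from -0.31 to 0.49, with a median of -0.02. They are descriptions over clones that share plates and libraries.

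St8sia2 and the Rgma ratio took the same sides by plate, a pattern found after the values were seen and given without a test. Plate means of St8sia2 fell at 19.2 to 27.9 CPM in 9 plates and at 51.5 to 225 CPM in the other 16 plates, with none between, although single clones of the 2 sets overlapped (9.83 to 37.8 and 20 to 283 CPM). The Rgma ratio averaged -0.38 to -0.14 on those 9 plates and -0.08 to 0.26 on the other 16. The plate mean of Rgma itself overlapped between them, with 3527 to 5995 CPM and 4795 to 7296 CPM. Libraries of the 9 plates were also deeper, with a median of 1294620 against 761290 allele-assigned counts, and the part of depth in the pattern was not tested.

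**Figure D2:**
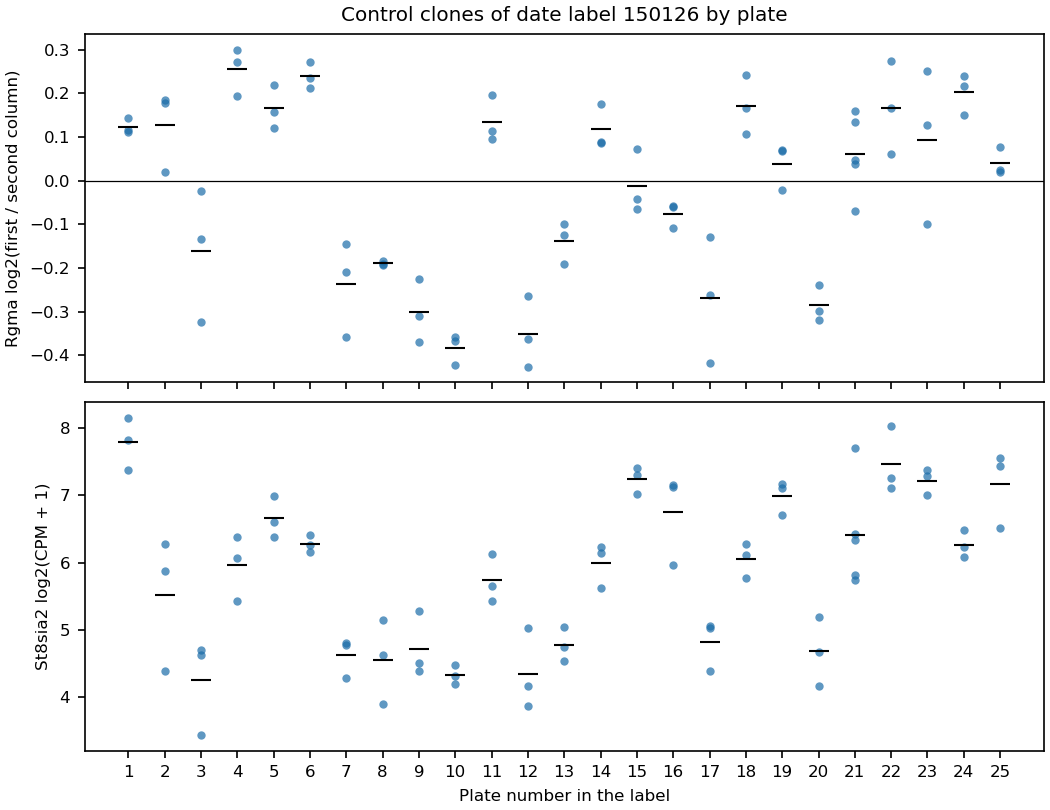
Control clones of date label 150126 by plate number, with 1 point per clone and the plate mean as a black dash. The upper panel gives the Rgma log2 allele ratio (first column over second) and the lower panel St8sia2 as log2(CPM + 1). Plates 3, 7, 8, 9, 10, 12, 13, 17 and 20 are low in both panels, with St8sia2 plate means of 19.2 to 27.9 CPM.

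Totals of Rgma and St8sia2 were correlated across clones of 150126, a relation that did not pass within plates. Here and below, the pooled permutation p-values of correlations treat clones as independent and do not allow for plates. Only the within-plate p-values come from shuffling clones inside plates. In Control clones of 150126, Pearson's r was 0.55 and Spearman's rho 0.56 (n = 77, permutation adjusted p = 0.000144 for both over 72 relations, from the smallest raw p that 100000 resamples can give), and r was 0.59 without the 2 clones farthest from the Rgma median. With plate means subtracted, rho was 0.18 (permutation p = 0.327, n = 77). Within the 9 plates of low St8sia2 rho was -0.05 over 27 clones, and within the other 16 it was 0.24 over 50, both on CPM. These sets were cut by St8sia2 itself, which narrows its range in each. Their rho therefore cannot show whether the relation holds within them. In 141107 the pooled values were 0.16 and 0.20 (n = 63, permutation adjusted p = 0.392 and 0.300), and the within-plate rho was 0.25 (permutation p = 0.0412 unadjusted and 0.290 adjusted). In 150126-S1 they were 0.62 and 0.66 (n = 15, permutation adjusted p = 0.0624 and 0.0501), with a rho of 0.35 within plates. Slco3a1 had no relation with either of the others past the threshold on any of the 7 dates: its rho with Rgma ran from -0.49 to 0.47 and its rho with St8sia2 from -0.48 to 0.47.

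In 150126, both Rgma and St8sia2 were lower in clones with more linc2025 and larger libraries. In unmodified clones of 150126, St8sia2 had an r of -0.63 and a rho of -0.64 with linc2025 (permutation adjusted p = 0.000144 for both) and Rgma an r of -0.40 and a rho of -0.44 (permutation adjusted p = 0.00336 and 0.00113), and r without the 2 farthest clones was -0.62 and -0.44. Within plates these rho were -0.09 and -0.05 (permutation p = 0.647 and 0.822). In 150416 (n = 9) the rho with linc2025 was -0.02 for St8sia2 and -0.32 for Rgma. In 150126, St8sia2 also had a rho of -0.71 with Fam174b and -0.62 with 1810026B05Rik, which overlaps linc2025. With the library total, rho in 150126 was -0.61 for St8sia2 and -0.49 for Rgma, and within plates -0.04 and -0.31 (permutation p = 0.803 and 0.0380). Slco3a1 went the other way, with an r of 0.30 with linc2025 and 0.42 with the library total (permutation adjusted p = 0.0441 and 0.00336). Its rho were 0.29 and 0.26 (permutation adjusted p = 0.0554 and 0.0994), and within plates -0.02 and -0.07. For Slco3a1 and the library total, 150216 had an r of 0.77 and a rho of 0.83 (n = 12, permutation adjusted p = 0.0211 and 0.0146). The within-plate rho there was 0.88 (permutation p = 0.0173), on a median of 3 counts of Slco3a1. In 150416 the r was -0.70 and the rho -0.82 (n = 9, permutation adjusted p = 0.129 and 0.0554). Other dates differed for St8sia2, with an r of 0.72 and a rho of 0.41 with the library total in 151101 (n = 15, permutation adjusted p = 0.0488 and 0.300) and an r of 0.30 and a rho of 0.28 in 141107 (n = 63, permutation adjusted p = 0.0724 and 0.107). For Rgma the within-plate rho with the library total was -0.37 in 141107 and -0.61 in 150801 (permutation p = 0.00943 and 0.00608).

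The relation of the St8sia2 allele ratio with its total also had an unadjusted permutation p under 0.05 within plates in 150126 and 141107. The more St8sia2 a clone had, the larger the share of it in the first column: in 150126, r was 0.69 and rho 0.74 (n = 70, permutation adjusted p = 0.000144 for both), r was 0.70 without the 2 farthest clones, and the within-plate rho was 0.42 (permutation p = 0.0170). In 141107, r was 0.60, rho 0.67 (n = 63, permutation adjusted p = 0.000144 for both), r 0.62 without 2 clones and within-plate rho 0.62 (permutation p = 4e-05). In the 4 other dates with at least 8 such clones, no relation passed, and rho ran from -0.02 to 0.51 over 8 to 17 clones. The allele ratios of Rgma and St8sia2 were related in 150801, with an r of 0.69 and a rho of 0.75 (n = 17, permutation adjusted p = 0.0126 and 0.00657), an r of 0.79 without 2 clones and a within-plate rho of 0.67 (permutation p = 0.00754). In 150126 the r was 0.44 and the rho 0.32 (n = 70, permutation adjusted p = 0.00185 and 0.0501), with a within-plate rho of -0.04 (permutation p = 0.821), and in 141107 the rho was -0.13 (n = 63).

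**Figure D3:**
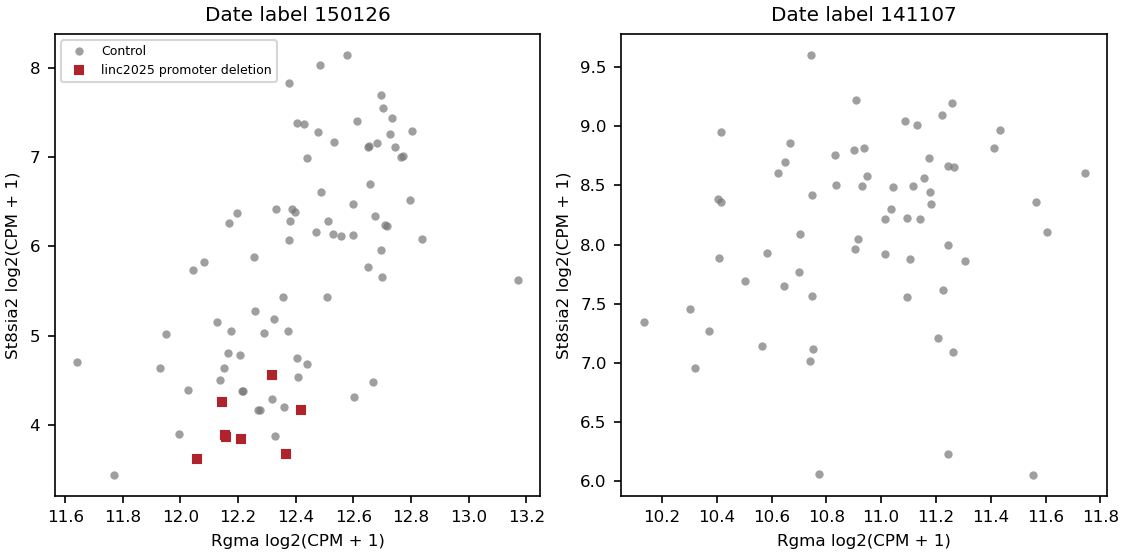
St8sia2 against Rgma, both as log2(CPM + 1), in Control clones (grey) of 150126 and 141107 and in the 8 linc2025 promoter deletion clones (red) of 150126. The relation among grey points (rho 0.56 in 150126, 0.20 in 141107) can be compared between panels, and the red points lie at the lower edge of St8sia2 (11.3 to 22.5 CPM) within the range of Rgma.

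Captured transcripts most like each member across the 77 clones lay on other chromosomes. For Rgma they were Ranbp17 and Nploc4 on chromosome 11, Zc3h3 and Ttll12 on 15 and Itm2c on 1, with rho of 0.69 to 0.79, where 95% of 471 transcripts were below 0.53. For St8sia2 they were Zfp454, Fbxw11 and Zfp879 on chromosome 11 and Puf60 and Ly6f on 15, with rho of 0.81 to 0.87, where 95% were below 0.67. In the 9 clones of 150416 the rho of St8sia2 was 0.82 with Zfp454, 0.50 with Ly6f, 0.40 with Zfp879, -0.32 with Fbxw11 and -0.45 with Puf60. That of Rgma was 0.63 with Ranbp17, 0.07 with Zc3h3, -0.12 with Ttll12, -0.20 with Nploc4 and -0.62 with Itm2c. For Slco3a1 the most alike were Adrbk2, Ccdc57, Adap2, Prrg4 and Apold1, at 0.41 to 0.45 in 150126 and at -0.75 to -0.02 in 150416. None of these 15 is listed in 141107. They are descriptions over clones that share plates. Of the genes of the RGM and BMP pathway listed for comparison, 1 of 25 was captured, the neogenin gene Neo1, in the second and the third panel. Its rho with Rgma was 0.48 in 141107 (n = 63) and 0.93 in 150126-S1 (n = 15). In the same 15 clones the rho of Rgma was 0.71 with Nes, 0.67 with Chd2, -0.575 with Gsc and -0.625 with 1810026B05Rik. In the 63 clones of 141107 it was -0.16 with Nes and 0.39 with Gsc, both of the opposite sign. There it was 0.20 with Chd2 and -0.25 with 1810026B05Rik, the latter on a mean of 1.29 counts. Neither the spread of rho over all transcripts in these dates nor a value for the third panel is given, and no relation with Neo1 was tested. None of 18 sialyltransferase and carrier genes and none of 11 organic anion transporter genes was captured besides the members.

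In clones with the linc2025 promoter deleted, the level of linc2025 itself ran from 0 to 389 CPM over 8 clones, against 298 to 742 CPM in the 77 Control clones, a log2 fold change of -1.86 ± 0.31 (SE). By allele column, clone 1 had 120 and 10 counts of linc2025, clone 3 had 0 and 551, clone 4 had 67 and 2, clone 5 had 92 and 3, and clone 6 had 495 and 3. Clones 2, 7 and 8 had 1, 0 and 9 counts in all. The linc2025 counts thus lay mostly in the first column in clones 1, 4, 5 and 6 and in the second in clone 3. Clone 4 had 31.7 CPM in all, far below the other 3 of these 4 clones, with 191 to 307 CPM.

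St8sia2 was the member that stood lowest in these clones. Its counts over the 8 clones were 8, 16, 16, 30, 6, 22, 22 and 24, or 11.3 through a median of 13.7 to 22.5 CPM, a log2 fold change of -2.40 ± 0.51 against Control. All 8 clones lay under the Control median of 66.9 CPM, and 13 of 77 Control clones lay within the range of the 8 and 1 below it. Of those 13 Control clones, all but 1, on plate 2, were on the 9 plates described above. The labels give no plate for modified clones, so plate and deletion cannot be told apart here.

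Rgma was slightly lower and Slco3a1 slightly higher. Rgma ran from 4259 through 4653 to 5473 CPM, with all 8 clones below the Control median of 5514 CPM and 31 Control clones inside their range, a log2 fold change of -0.27 ± 0.11. Slco3a1 ran from 11.5 through 20.1 to 30.2 CPM, with 7 of 8 clones above the Control median of 12.4 CPM, a log2 fold change of 0.45 ± 0.25. The edgeR fit called 52% of 473 transcripts in this comparison, and no call is given for the members, since it was used to choose them. When clones of 150126 with a promoter deleted on another chromosome took the place of Control clones, the log2 fold change of Rgma was -0.023 ± 0.14 and that of St8sia2 -2.39. Of the 11 captured transcripts within 1 Mb, 7 were tested. Among the neighbours, the log2 fold change was 0.35 ± 0.12 for Chd2, 0.84 ± 0.23 for Fam174b and -1.89 ± 0.29 for 1810026B05Rik, which overlaps linc2025 so that their reads cannot be told apart.

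**Figure D4:**
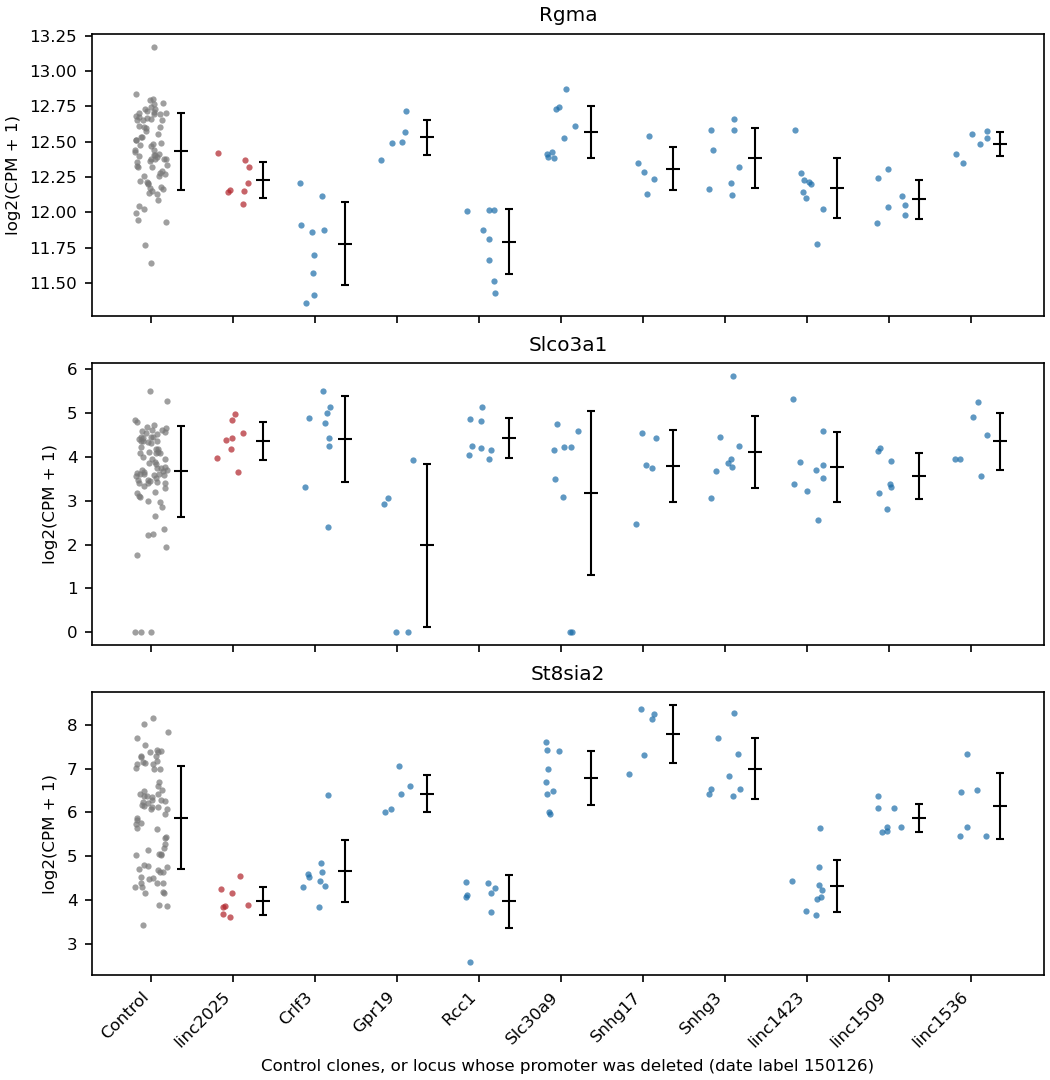
Level of each member, as log2(CPM + 1), in Control clones (grey), linc2025 promoter deletion clones (red) and the 9 groups with another promoter deleted (blue), all of date label 150126, with 1 point per clone and the mean and SD as a black bar. For St8sia2, the means of Rcc1 (15.6 CPM) and linc1423 (20.9 CPM) lie nearest that of the linc2025 group (15.2 CPM), and Snhg17 has the highest mean (237 CPM).

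The Rgma allele ratio leaned to the second column in every linc2025 promoter deletion clone. The 8 ratios were -0.20, -0.33, -0.35, -0.73, -0.42, -0.57, -0.40 and -0.46 in clone order, a mean of -0.43 ± 0.16 (SD). In Control clones the lowest was -0.43, the median 0.038 and the highest 0.30. Of the Control clones 17 lay within the range of the 8, and 3 of the 8 lay below every Control clone. The direction was the same whether the linc2025 counts lay mostly in the first column (clones 1, 4, 5 and 6), in the second (clone 3) or were nearly absent (clones 2, 7 and 8). Taken without sign, the distance of a clone's ratio from the median of all these clones averaged 0.41 ± 0.16 against 0.18 ± 0.10. The permutation test of this distance called 0.868% of 461 transcripts, and no call is given for the members. The excess was 0.233 against Control clones and 0.0766 against the clones modified on other chromosomes. For St8sia2, 4 clones had at least 20 counts and a mean ratio of -4.16 ± 1.83, against -2.16 ± 1.36. For Slco3a1, 4 clones had a mean of 0.96 ± 1.03, against 0.98 ± 0.77 (n = 22).

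In linc2025-pAS clones the counts were few, from 84982 to 428677 per library. The level of linc2025 was 149, 188, 230 and 247 CPM, against a median of 295 CPM in the 18 reference clones, a log2 fold change of -0.48 ± 0.20 (SE). Rgma was at 1066, 2895, 1106 and 826 CPM in the 4 clones, against 458 through 832 to 1718 CPM, a log2 fold change of 0.81 ± 0.27. Clone 2 stood above all reference clones and the other 3 inside their range, and without clone 2 the log2 fold change was 0.25.

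Slco3a1 was at 122, 47.1, 86.2 and 135 CPM in the pAS clones, against 0 through 50.2 to 96.8 CPM, a log2 fold change of 0.95 ± 0.38, with 2 of 4 clones above every reference clone. St8sia2 had 0, 0, 0 and 4 counts and did not reach the mean count of 10 needed for the fit. A count of 0 allows up to 20.4, 35.3 and 21.5 CPM in the first 3 clones (3 counts per library), above the reference median of 13.3 CPM, so a difference of that size was not detectable at this depth. The edgeR fit called 1.98% of 454 transcripts in this comparison, and again no call is given for the members. The Rgma ratio averaged -0.17 ± 0.21 (SD, n = 4) against 0.30 ± 0.64 (n = 18), and the permutation test of the ratio called 0% of 367 transcripts. Against Control clones of other dates the log2 fold change of Rgma was -1.99 ± 0.36 and that of Slco3a1 2.42 ± 0.41, which carries the differences between dates given above.

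Groups modified elsewhere give the members' levels where linc2025 was not the target. These groups share the Control clones of their date, so their values are not independent. Their labels give no plate either, so plate and modification cannot be told apart in them. The edgeR and permutation p-values of these groups treat clones as independent and do not allow for plates. Among the 9 promoter deletions of 150126, edgeR called Rgma lower in 4 and higher in none, while over all transcripts and groups 17.7% of 4248 tests were called lower and 12.9% higher. It fell by 0.74 ± 0.11 on the log2 scale in Crlf3 (9 clones, adjusted p = 8.06e-07), by 0.76 ± 0.12 in Rcc1 (8 clones, 1.25e-06), by 0.46 ± 0.12 in linc1509 (7 clones, 0.00593) and by 0.27 ± 0.11 in linc1423 (9 clones, 0.0442). The fall in Crlf3 was to 3572 ± 720 CPM (SD) and in Rcc1 to 3584 ± 555 CPM, from 5614 ± 1032 CPM in Control clones. Of all transcripts tested, 42.9% were called in Crlf3, 46.7% in Rcc1, 12.7% in linc1509 and 28.1% in linc1423, both directions together.

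St8sia2 fell in 3 of these 9 groups and rose in 1. It fell by 2.41 ± 0.50 in Rcc1, to 15.6 ± 5.0 CPM (edgeR adjusted p = 7.8e-05), by 1.86 ± 0.47 in linc1423, to 20.9 ± 11.5 CPM (0.00195), and fell by 1.62 ± 0.46 in Crlf3, to 28 ± 21.1 CPM (0.00335). The values stand beside -2.40 ± 0.51 in the linc2025 deletion, and Rcc1 lies on chromosome 4, linc1423 on 1 and Crlf3 on 11. St8sia2 rose by 1.61 ± 0.43 in Snhg17, to 237 ± 94.1 CPM (0.007). Of all transcripts tested, 46.7% were called in Rcc1, 28.1% in linc1423, 42.9% in Crlf3 and 29.5% in Snhg17, both directions together. A call in these groups by itself does not set a member apart. The keratin sum, whose part in the St8sia2 values was not tested, averaged 445 CPM in Crlf3, 748 in Rcc1, 770 in linc1423 and 187 in Snhg17, beside 509 in Control clones. In the groups without a St8sia2 call it averaged 923 CPM in linc1509, 318 in linc1536, 269 in Slc30a9, 265 in Gpr19 and 195 in Snhg3. Slco3a1 rose in 1 of 9, by 0.68 ± 0.24 in Crlf3, to 23.9 ± 12.5 CPM (0.0168).

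On the other dates no member was called by edgeR, in 20 groups for Rgma and St8sia2 and in the 13 groups in which Slco3a1 had enough counts, where 2.51% of 10690 tests were lower and 3.22% higher. At an unadjusted p under 0.05 there were 2 groups for Rgma, 3 for St8sia2 and 5 for Slco3a1, and DESeq2 called 0, 2 and 1. The 2 that DESeq2 called for St8sia2 were Dicer1-PromoterDeletion and linc1319-PromoterInsertion, and the one for Slco3a1 was linc1319-Intron3Deletion.

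The Rgma ratio leaned to the second column in the same 3 groups in which St8sia2 fell. Its mean was -0.41 ± 0.10 in Crlf3 (SD, n = 9), -0.37 ± 0.15 in Rcc1 (n = 8) and -0.29 ± 0.12 in linc1423 (n = 9), beside -0.43 ± 0.16 in the linc2025 deletion. In the other 6 groups of 150126 the means ran from -0.043 in Gpr19 to 0.27 in linc1509. The unsigned distance from the median passed the permutation test in Crlf3 (larger by 0.21, permutation adjusted p = 0.000958) and Rcc1 (larger by 0.17, permutation adjusted p = 0.00669) and not in linc1423 (larger by 0.09, permutation adjusted p = 0.560), where 2.87% of 3942 tests in these groups passed. On other dates the Rgma ratio passed in 0 of 20 groups (3 at an unadjusted p under 0.05, 0 with a minimum of 50 counts), where 0.192% of 9898 tests passed. The ratio of St8sia2 passed in 0 of 25 groups over all dates (5 at an unadjusted p under 0.05) and that of Slco3a1 in 0 of 10 (0 at an unadjusted p under 0.05), by permutation, with few clones above 20 counts in most.

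**Figure D5:**
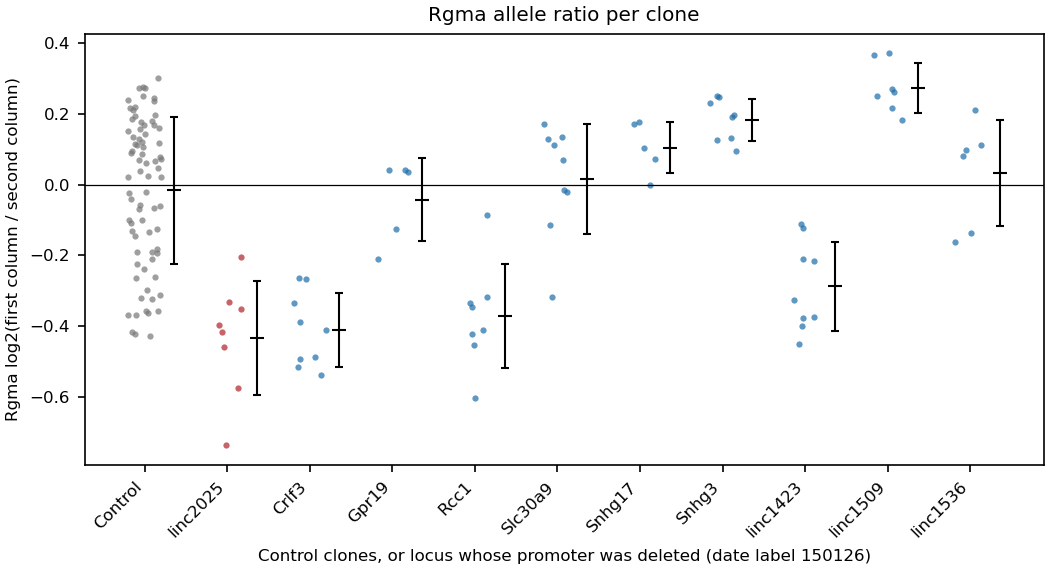
Rgma log2 allele ratio (first column over second) in clones of date label 150126, with 1 point per clone, the mean and SD as a black bar and a line at 0. All 8 linc2025 clones (red, mean -0.43) lie below 0, as do the clones of Crlf3 (mean -0.41), Rcc1 (mean -0.37) and linc1423 (mean -0.29), and the Control clones (grey) spread from -0.43 to 0.30.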

How the data were processed

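The authors deposited raw counts per transcript, as whole numbers in a column for each allele. The build is mm9, according to the submitters' processing notes, and the sources used here name neither the aligner nor how reads were counted or assigned to alleles. Rows that repeat an overlapping row, and exon rows of linc1319 and linc1405, were left out (1, 5 and 12 rows), leaving 691, 898 and 896. No library pair of 35821 was identical or as close as sampling noise. The 23 samples without a count table were not analysed here.

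Totals were fitted over all transcripts with a mean count of at least 10, with edgeR 4.0.16 (TMM, quasi-likelihood, Benjamini-Hochberg within a fit, threshold 0.05) in R 4.3.3, and with DESeq2 1.42.0 as an alternative. Allele ratios used a pseudocount of 0.5 and a permutation test, two-sided and exact up to 100000 splits, else 100000 resamples. Correlations of totals used log2(CPM + 1) with TMM library sizes, apart from the rho within the sets of plates, which used CPM. Python 3.11.15, NumPy 2.4.6 and SciPy 1.17.1 ran these. Tests were checked on simulated data. The members and gene lists were chosen with earlier results of these data known. Named genes are the members, captured transcripts within 1 Mb, the 5 most alike per member and captured list genes. Gprc5a and the sets of plates were named after their values were seen.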

Additional observations from a re-analysis of the deposited data

Results flagged for a closer look

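Among 54 sets of 4 to 10 clones (the linc2025 groups and the 9 other promoter deletions of 150126, each member's CPM and allele ratio), 6 had a highest or lowest clone standing apart from the rest by Dixon's test. Chance flags about 1 in 20 such sets. In the linc2025 promoter deletion, clone 6 had a Slco3a1 log2 allele ratio of 2.50 on 49 counts, and the next of 4 clones had 0.49. In linc2025-pAS, clone 2, the smallest library of the group with 84982 counts, had 2895 CPM of Rgma, and the next clone had 1106 CPM. In the same group, clone 4 had 9.33 CPM of St8sia2 on 4 counts and the other 3 had 0. In the Crlf3 promoter deletion, clone 3 had 83.2 CPM of St8sia2 on 39 counts, and the next of 9 clones had 27.6 CPM. In the Snhg3 promoter deletion, clone 5 had 56.2 CPM of Slco3a1 on 6 counts, and the next of 8 had 20.8 CPM. In the linc1423 promoter deletion, clone 9 had 49.3 CPM of St8sia2 on 61 counts, and the next of 9 had 25.8 CPM.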

How the results depend on the processing

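Of 186 alternative values over 42 results, 179 moved by no more than the SD between clones or kept their side of the threshold, which allows large proportional moves: the Rgma allelic deviation in the promoter deletion was 0.0766 against clones modified elsewhere and 0.233 against Control clones. With clones of 150126 modified elsewhere as the reference, Rgma in the linc2025 promoter deletion had a log2 fold change of -0.023. Set against Control clones of any date of that panel, linc2025-pAS had -1.99 for Rgma and 2.42 for Slco3a1. As an allelic fraction, the deviation of Rgma in pAS was 0.000806, with other units than the log2 ratio. DESeq2's likelihood ratio test gave an adjusted p of 0.0428 for plate and Slco3a1 in 141107, where library size alone gave 0.161. DESeq2 called Slco3a1 in 2 groups modified elsewhere. With plate means subtracted, the rho of Rgma and St8sia2 in 150126 was 0.18. The causes were not tested. Leaving out each clone of the promoter deletion gave -0.30 to -0.24 for Rgma, 0.35 to 0.54 for Slco3a1 and -2.50 to -2.34 for St8sia2, and for the allelic deviation 0.21 to 0.29, -0.28 to 0.28 and 0.74 to 1.99. Slco3a1 turned negative without clone 6, and St8sia2 was 1.99 without clone 8 and 0.74 without clone 4, beside 0.126 and 1.32 with all clones. In pAS it gave 0.25 (without clone 2) to 1.01 for Rgma, 0.73 to 1.11 for Slco3a1 and -0.05 to 0.12 for the Rgma deviation. No paired analysis was possible because replicate numbers follow the order of accession and the labels give no plate for modified clones. Counts limit Slco3a1 most, with a median of 12 in Control clones of 150126.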
